A study of Mus musculus with 4 samples.

Results

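Cadherins and non-clustered protocadherins were described across 4 libraries of mouse cortical progenitors. Members were the protein-coding genes of the deposited count table whose Ensembl identifier maps, in GENCODE M21 on GRCm38, to a symbol made of Cdh and a number, or of Pcdh and a number with or without an x. This gave 35 genes, 23 cadherins and 12 protocadherins, among the 45706 genes of the table, 21519 of them protein coding. The clustered Pcdha, Pcdhb and Pcdhg genes are not members. The symbol rule is wider than classical cadherins, since 18 of the 23 cadherins belong to the classical types I and II and the other 5 (Cdh13, Cdh16, Cdh17, Cdh23 and Cdh26) do not.

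The libraries were made from basal radial glia of the medial neocortex at stage E18.5, from C57BL/6JOlaHsd mice of the genotype Tubb-GFP/+, which all 4 libraries share. The sample titles also name DiI, a lipophilic membrane dye. How dye and reporter were used to isolate the cells, and whether the 4 libraries came from separate animals, is not given in the labels, so the spread between them, and every p-value, may be technical. All 4 libraries form a single group, and no comparison between conditions is possible.

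Cadherins are calcium-dependent adhesion proteins whose outer domains bind the same or a similar cadherin on the next cell. Classical cadherins carry a cytoplasmic tail that binds β-catenin and p120-catenin, and through α-catenin the actin cytoskeleton. In the embryonic cortex N-cadherin (Cdh2) builds the belt of adherens junctions between apical radial glia at the ventricle, and type II cadherins are known for expression in restricted areas and layers. Non-clustered protocadherins have other cytoplasmic tails and bind weakly between cells. Members of their δ2 branch recruit the WAVE complex, which drives branched actin, and are known from axon growth and cell sorting.

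Levels are given as TPM, a share of all transcripts per unit of length, recomputed here from counts and merged exon lengths. Whether reads in introns were counted is not given. If they were, exon lengths would raise genes with long introns relative to other genes. Library totals were between 26540656 and 34837657 counts. All 9 radial glia genes looked at were above 1 TPM. Fabp7 was at 4631 ± 382 TPM (SD, n = 4), Slc1a3 at 267 ± 20.5 TPM and Sox2 at 30.1 ± 4.10 TPM. The lowest, Hes5, was at 12.7 ± 2.31 TPM. All 7 neuronal genes were above 1 TPM too, with Tubb3 at 6691 ± 496 TPM, as were all 6 genes of intermediate progenitors. So were all 5 genes of the oligodendrocyte lineage and 5 of 6 interneuron genes. The median of the gene means was 104 TPM for the radial glia genes and 449 TPM for the neuronal genes. Of all protein-coding genes tested, 75.7% were called above 1 TPM, so these counts do not identify the cells. In bulk RNA the cell that held a transcript is not known, and fewer cells of a type cannot be told apart from less RNA per cell.

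Each gene with at least 10 counts over the 4 libraries was tested against a level of 1 TPM by edgeR's quasi-likelihood F test, with Benjamini-Hochberg adjustment over all 20991 genes tested and a threshold of 0.05. Of the 35 members, 32 had enough counts. Of these 20 were called above 1 TPM, 7 below it, and 5 were not called. The share above, 62.5%, stands beside 65.9% of all genes tested and 75.7% of the 15401 protein-coding genes tested. The share below, 21.9%, stands beside 12.1% and 11.5%, and the 7 members below became 3 without replicate 1, 3 or 4. The median of the 35 members was 1.86 ± 0.142 as log2(TPM + 1), ± SD over 4 libraries, and that of all protein-coding genes was 1.81 ± 0.0260. Among genes with at least 10 counts the medians were 2.28 ± 0.0755 for the members and 3.31 ± 0.0242 for protein-coding genes. The means of the 35 members ran from 0.0117 TPM (Cdh16) to 82.4 TPM (Cdh4), and 9 of them were above 10 TPM.

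**Figure D1:**
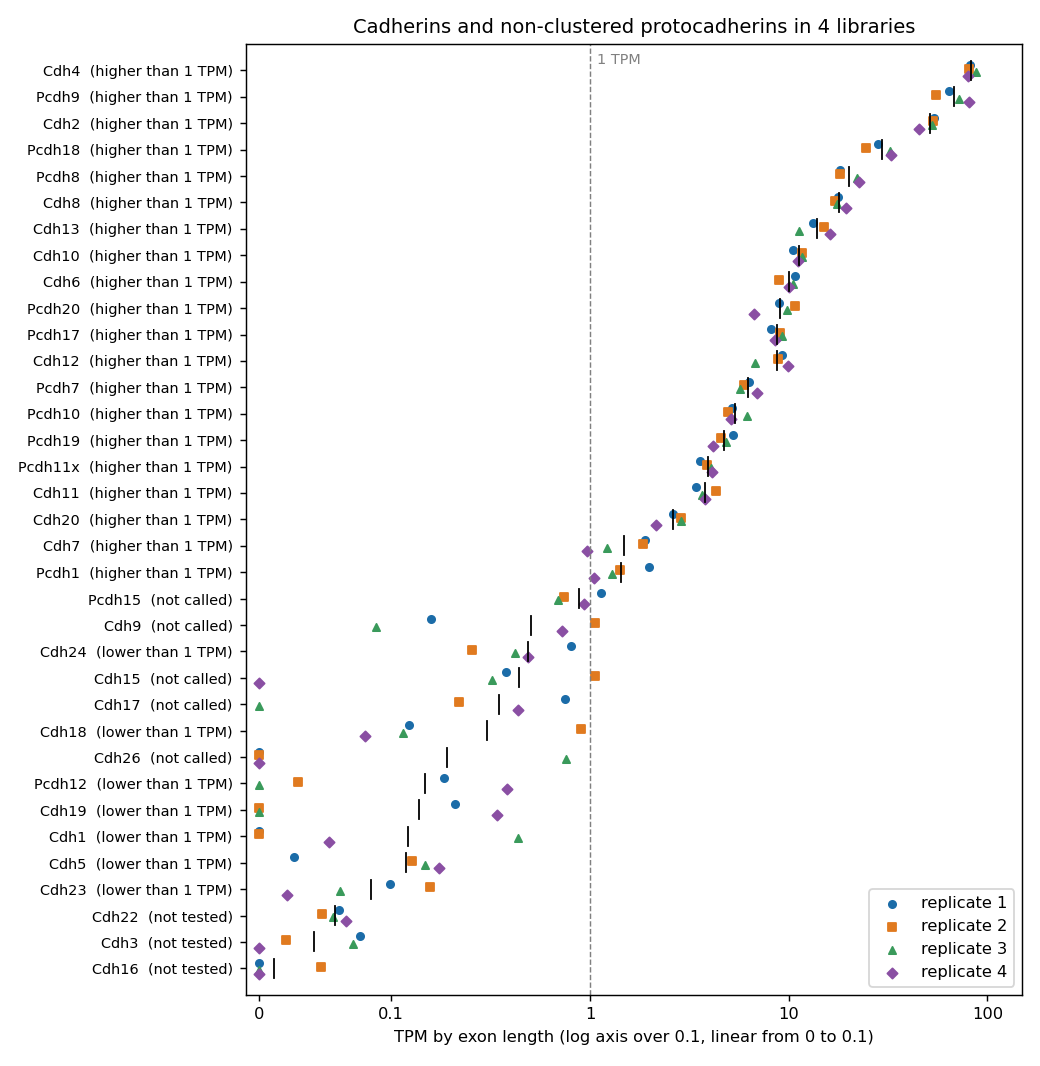
TPM by exon length of the 35 genes, ordered by mean, with 1 point per library (replicates 1 to 4), a black tick at the mean and a dashed line at 1 TPM. The axis is logarithmic over 0.1 TPM and linear between 0 and 0.1. Levels run from 0.0117 to 82.4 TPM, the points of the 20 genes called above 1 TPM lie closer together than those of most lower genes.

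Cdh4, Pcdh9 and Cdh2 held 55.4% of the summed TPM of all members. Cdh4, which encodes R-cadherin, a type I cadherin closely related to N-cadherin, was at 81.8, 80.9, 87.5 and 79.7 TPM in replicates 1 to 4, a mean of 82.4 ± 3.45 TPM (SD, n = 4). It rested on 5310, 6605, 6098 and 4765 counts, and against 1 TPM its log2 level was 6.37 ± 0.05 (SE), with an edgeR adjusted p of 1.42e-18. Its libraries lay closer together than those of any other of the 20 genes, with a coefficient of variation of 4.19%. Cdh2 was at 54.0, 53.5, 52.8 and 45.5 TPM, a mean of 51.4 ± 3.98 TPM (log2 5.68 ± 0.06 against 1 TPM, SE; edgeR adjusted p = 3.82e-17). Replicate 4 was the lowest for Cdh2, and the other 3 lay between 52.8 and 54.0 TPM. Cdh2 was lower than Cdh4 in all 4 libraries, with a log2 ratio of -0.68 ± 0.10 (SD, n = 4; exact two-sided sign-flip permutation test, adjusted p = 0.132 over 19 gene pairs). With 4 libraries that test has 16 sign assignments and its smallest raw p is 2 of 16, so no pair could pass 0.05. That difference depended on the length used, being -0.13 with the longest transcript of each gene and 0.48, with Cdh2 the higher, in the deposited TPM. The order of these cadherins thus differed between length scales.

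The other type I cadherins, E-cadherin (Cdh1), P-cadherin (Cdh3) and M-cadherin (Cdh15), are known from epithelia and muscle. Cdh1 had 0, 0, 19 and 2 counts, or 0, 0, 0.432 and 0.0531 TPM, and was called below 1 TPM (edgeR adjusted p = 0.0386). A count of 0 allows up to 3 counts, which for Cdh1 is 0.0733 TPM. Replicate 3 held 90.5% of its counts, and the call was lost without replicate 1 and without replicate 4 (adjusted p = 0.0713 and 0.0842). Without replicate 3 only 2 counts were left, too few to test. Cdh2 exceeded Cdh1 by 6.43 ± 0.44 on the log2 scale (TPM + 0.5, SD, n = 4), in all 4 libraries. Cdh3 had 3, 1, 3 and 0 counts, too few for the test. Cdh15 had 11, 39, 10 and 0 counts and was not called (adjusted p = 0.149). In the same libraries 1 of 6 epithelial genes was called above 1 TPM, Epcam at 3.64 ± 1.33 TPM, with Cldn4 at 0 counts, and the summed level of the 6 genes, most of it from Epcam, ran from 2.64 to 5.71 TPM. Epcam was at 2.44, 4.01, 2.75 and 5.36 TPM in replicates 1 to 4, higher in replicates 2 and 4 than in replicate 3. Of the low epithelial genes, Krt14 had 0, 0, 11 and 0 counts, all in the library that held most of those of Cdh1. Grhl2 had 3, 2, 18 and 16 and Krt8 0, 0, 2 and 2, higher in replicates 3 and 4, and Krt18 had 2, 3, 0 and 0. Of 6 skeletal muscle genes 1, Acta1, was called above 1 TPM (7.48 ± 1.89 TPM), and the summed level ran from 5.19 to 10.7 TPM. The part of either cell type in these counts was not tested.

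Of the 13 type II cadherins, 7 were called above 1 TPM, 4 below it, 1 was not called and 1 was not tested. The 7 were Cdh8, Cdh10, Cdh6, Cdh12, Cdh11, Cdh20 and Cdh7. These counts, and those of the marker genes, stand beside 75.7% of protein-coding genes tested called above 1 TPM and 11.5% below. By exon length the highest type II cadherin was Cdh8, at 17.7, 17.2, 17.5 and 19.3 TPM (17.9 ± 0.953 TPM, SD, n = 4). Cdh10 followed at 10.5, 11.7, 11.6 and 11.1 TPM and Cdh6 at 10.8, 8.91, 10.5 and 10.1 TPM. The libraries of Cdh8 did not overlap those of the other type II cadherins, while those of Cdh10 and Cdh6 overlapped. Cdh6 was below Cdh8, at a log2 ratio of -0.81 ± 0.12 (TPM + 0.5, SD, n = 4), in all 4 libraries, but above it, at 0.67, in the deposited TPM. The merged exons of Cdh10 hold 10051 bases and its longest transcript 3765. With the longest transcript as length for every gene the mean of Cdh10 was 22.7 TPM, 2.02 times as high, beside 22.9 TPM for Cdh8.

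Cdh12 was at 9.22, 8.83, 6.77 and 9.97 TPM and Cdh11, also known from mesenchyme and bone, at 3.43, 4.29, 3.67 and 3.79 TPM. Replicate 3 was the lowest for Cdh12, and the 4 libraries of Cdh11 lay between 3.43 and 4.29 TPM. Cdh6 exceeded Cdh11 by 1.30 ± 0.24 and Cdh2 exceeded it by 3.60 ± 0.17 (log2, SD, n = 4), each in all 4 libraries. Cdh20 had a mean of 2.63 ± 0.345 TPM and Cdh7 of 1.48 ± 0.457 TPM. Cdh7 had the widest relative spread of the genes called above 1 TPM. Its counts of 169, 209, 118 and 80 gave a coefficient of variation of 30.9%, and edgeR's adjusted p rose from 0.0127 to 0.0848 without replicate 1 and 0.0724 without replicate 2. Its call was also lost by limma (adjusted p = 0.101).

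The remaining type II cadherins had few counts. Cdh24 (mean 0.490 TPM), Cdh18 (0.304 TPM), Cdh19 (0.137 TPM) and Cdh5 (0.119 TPM) were called below 1 TPM. For Cdh24 the call was lost without replicate 2, 3 or 4, for Cdh18 without replicate 1, 3 or 4, for Cdh19 without replicate 1 or 3 (and without replicate 4 it has only 8 counts, too few to test), and for Cdh24 and Cdh18 also with a protein-coding denominator. Cdh18 lost it with the longest transcript as length, and Cdh24 on the deposited scale. Cdh9 (0.505 TPM) was not called, and Cdh22 had 2, 2, 2 and 2 counts. Cdh5, the VE-cadherin of blood vessels, had 1, 6, 6 and 6 counts, or 0.0266, 0.127, 0.149 and 0.173 TPM (log2 -3.07 ± 0.62 against 1 TPM, SE; edgeR adjusted p = 0.00430). Among 9 further endothelial genes 2 were called above 1 TPM, Esam (1.95 TPM) and Egfl7 (1.71 TPM), and 5 below it. Their summed level ran from 4.47 TPM in replicate 4 to 7.30 TPM in replicate 1. Esam and Egfl7 gave most of it in replicates 1 to 3 but not in replicate 4, where they were at 0.974 and 1.02 TPM. Single genes did not follow the order of the summed level, since Pecam1, Tek and Emcn were highest in replicate 4 and Cdh5 was lowest in replicate 1. Cdh19, a cadherin of Schwann cells, had 8, 0, 0 and 12 counts.

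Among the 5 cadherins outside types I and II, only Cdh13 was called above 1 TPM, beside 75.7% of protein-coding genes tested. Cdh13 encodes T-cadherin, which is held in the membrane by a lipid anchor and has no cytoplasmic tail. It was at 13.2, 14.99, 11.3 and 16.1 TPM, a mean of 13.9 ± 2.10 TPM (SD, n = 4), lowest in replicate 3 and highest in replicate 4. Cdh4 exceeded it by 2.54 ± 0.27 (log2, SD, n = 4) and Cdh11 was below it, at a log2 ratio of -1.74 ± 0.19, each in all 4 libraries. The second of these turned to 0.31 in the deposited TPM. Cdh13 also moved with the choice of transcript, to 25.9 TPM with the longest transcript as length. Cdh17, a cadherin of the gut, had 30, 11, 0 and 16 counts, Cdh26 0, 0, 22 and 0 and Cdh16, of the kidney, 0, 2, 0 and 0. The first 2 were not called and Cdh16 was not tested.

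Non-clustered protocadherins were called above 1 TPM in 10 of 12 cases, the exceptions being Pcdh12 and Pcdh15. This count, and those of the δ1 and δ2 branches, stand beside 75.7% of protein-coding genes tested that were called above 1 TPM. All 4 members of the δ1 branch were among them, with a list median of 2.57 ± 0.0675 (log2(TPM + 1), SD, n = 4). Pcdh9 led at 63.8, 54.8, 71.5 and 81.0 TPM (67.8 ± 11.1 TPM), higher in replicates 3 and 4 than in replicates 1 and 2. In replicate 4 it was the highest of all 35 members, above Cdh4, and in the other 3 it was second to Cdh4. Pcdh7 was at 6.32, 5.95, 5.65 and 6.93 TPM and Pcdh11x, an X-linked gene, at 3.58, 3.89, 4.08 and 4.13 TPM. The libraries of these 2 genes did not overlap, and Pcdh7 exceeded Pcdh11x by 0.60 ± 0.14 (log2, SD, n = 4). Pcdh7 shares 21.1% of its exonic bases with the antisense gene 4932441J04Rik, and since the library protocol does not describe strand marking the value is uncertain, although that gene itself had 55 counts against 2491 for Pcdh7. Pcdh1 had a mean of 1.44 ± 0.396 TPM, was below Pcdh7 in all 4 libraries, at a log2 ratio of -1.81 ± 0.33 (SD, n = 4), and above it, at 1.03, in the deposited TPM. Its call (edgeR adjusted p = 0.0160) was lost without replicate 1 (adjusted p = 0.129) and by limma (0.104).

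All 5 δ2 protocadherins were called above 1 TPM, with a list median of 3.28 ± 0.0718 (log2(TPM + 1), SD, n = 4). Pcdh18 was at 28.3, 24.4, 32.2 and 32.7 TPM and Pcdh8, known as paraxial protocadherin and, in neurons, as arcadlin, at 18.1, 18.0, 22.1 and 22.6 TPM. For both genes replicates 3 and 4 were higher than replicates 1 and 2, as for Pcdh9. Pcdh17 was at 8.17, 9.05, 9.22 and 8.52 TPM, Pcdh10 at 5.20, 4.94, 6.15 and 5.12 TPM and Pcdh19, the X-linked gene of an inherited epilepsy in girls, at 5.23, 4.58, 4.84 and 4.14 TPM. The libraries of Pcdh18 and of Pcdh8 did not overlap those of any other δ2 gene, and those of Pcdh10 and Pcdh19 overlapped. Pcdh18 exceeded Pcdh19 by 2.52 ± 0.26, Pcdh10 was below Pcdh8 at a ratio of -1.82 ± 0.15, and Pcdh17 exceeded Pcdh19 by 0.83 ± 0.16 (log2, SD, n = 4), each in all 4 libraries. Pcdh10 exceeded Pcdh19 in 3 of 4 libraries, by 0.17 ± 0.15 (exact sign-flip permutation p = 0.25). That small difference was 1.01 with the longest transcript as length. Pcdh9 exceeded Pcdh17 by 2.87 ± 0.26 by exon length, and was below it in the deposited TPM (-1.03).

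The other 3 protocadherins differed widely. Pcdh20 was at 8.93, 10.7, 9.76 and 6.72 TPM, lowest in replicate 4, and lay below Pcdh8 in all 4 libraries, at a log2 ratio of -1.13 ± 0.40 (SD, n = 4). Pcdh12, which is known from endothelium, had 10, 2, 0 and 19 counts and was called below 1 TPM (edgeR adjusted p = 0.0235, and 0.0604 without replicate 1). Among the endothelial genes Tek had 6, 0, 2 and 9 counts and was, like Pcdh12, highest in replicate 4, while Esam and Egfl7 were lowest there. The part of endothelial cells in these counts was not tested. Pcdh15 and Cdh23 form the tip link that opens the transduction channel of inner ear hair cells. Pcdh15 was at 1.13, 0.744, 0.692 and 0.934 TPM and was not called (edgeR adjusted p = 0.249), but it was called above 1 TPM, at log2 0.79, with its longest transcript of 9104 bases in place of 23773 merged exonic bases from 41 transcripts. On the deposited scale, which divides by a span of 1550396 bases, it was called below 1 TPM at log2 -4.40. Cdh23 had 15, 30, 10 and 3 counts and was called below 1 TPM at log2 -3.54 ± 0.46 (SE; edgeR adjusted p = 0.000325). Pcdh15 was thus measured at 0.876 TPM and its tip link partner at 0.0848 TPM, with no test of that difference. Of 5 hair cell genes, Pou4f3 was called above 1 TPM (5.68 TPM), Myo15 and Otof below it, and Gfi1 had 1 count in all.

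**Figure D2:**
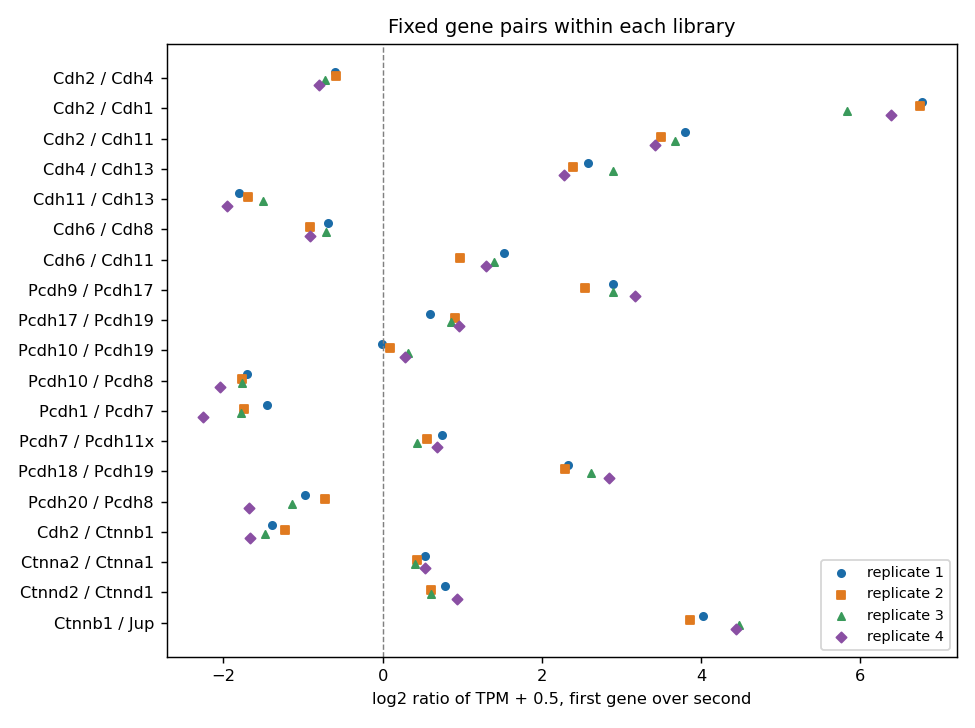
Log2 ratio of TPM + 0.5 between the 19 fixed gene pairs, first gene over second, with 1 point per library (replicates 1 to 4) and a dashed line at equal level. In 18 pairs the 4 points lie on 1 side of the line, and Pcdh10 / Pcdh19 straddles it.

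Of 19 neighbouring pairs in the order of the 20 genes, the ranges over libraries overlapped in 12 and lay apart in 7. Within libraries, Pcdh8 over Cdh8 and Cdh12 over Pcdh7 held in 4 of 4 although their ranges overlapped, and the other 10 overlapping pairs held in 1 to 3 of 4. The steps without overlap were Pcdh9 over Cdh2, Cdh2 over Pcdh18, Pcdh18 over Pcdh8, Cdh8 over Cdh13, Pcdh19 over Pcdh11x, Cdh11 over Cdh20 and Cdh20 over Cdh7. From Cdh13 down to Pcdh19 each gene overlapped the next. The 6 highest genes kept their ranks in replicates 1, 2 and 3, and in replicate 4 only Cdh4 and Pcdh9 changed places. The coefficient of variation of the 20 genes ran from 4.19% to 30.9%, with a median of 9.93%, beside 11.3% for all protein-coding genes called above 1 TPM. Of the 20, 8 had their highest level in replicate 4 and 7 their lowest there, so replicate 4 was at an extreme, in either direction, more often than any other library.

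Of the 15 other members, Pcdh15 had 781 counts, more than Cdh20, Cdh7 or Pcdh1, and each of the other 14 had at most 71. For several of these 1 library held most of the counts. Replicate 2 held 46 of the 59 counts of Cdh18 and 42 of the 71 of Cdh9, and replicate 3 all 22 of Cdh26 and 19 of the 21 of Cdh1. Around a mean scaled to library size, the variance of the Cdh18 counts was 22.1 times, and that of the Cdh26 counts 21.7 times, what counting error alone gives. Of 2742 protein-coding genes with 10 to 99 counts, whose median was 4.47 times, 1.53% had a higher value than Cdh18 and 1.68% a higher value than Cdh26. Cdh5, at 1.29 times, and Cdh24, at 3.75 times, were less scattered than most genes of that range. Of the 35 members, 8 had no count in at least 1 library. The libraries were amplified before sequencing and the labels describe no molecular identifiers, so reads may not be independent molecules, and limits from counts cover counting error only.

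**Figure D3:**
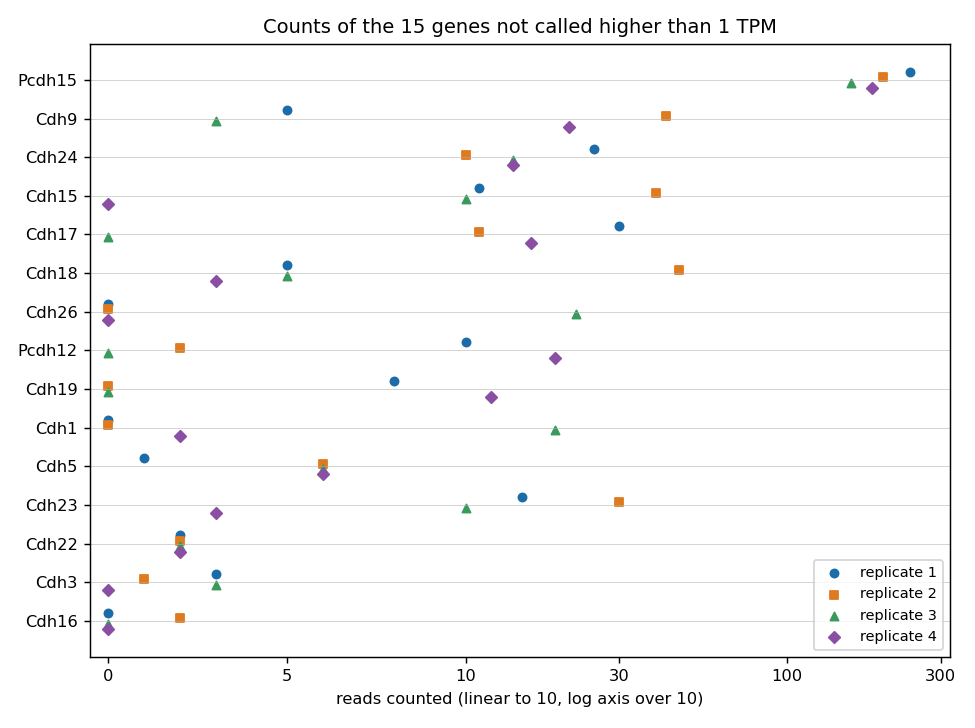
Reads counted for the 15 genes not called above 1 TPM, with 1 point per library (replicates 1 to 4), on an axis that is linear to 10 and logarithmic over 10. Cdh26 has all its reads and Cdh1 most of them in replicate 3, and Cdh18 has most in replicate 2, while Cdh22 has 2 in each library.

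Members that lie next to each other in the genome often differed in level. All positions are GRCm38, from GENCODE M21. On chromosome 15, Cdh6 (13028701 to 13173675), Cdh9, Cdh10, Cdh12 and Cdh18 follow each other with no protein-coding gene between neighbours, over gaps of 0.959 to 3.56 Mb. Their levels along the chromosome were 10.1, 0.505, 11.2, 8.70 and 0.304 TPM, and each low member lies beside a higher one. On chromosome 2, Cdh26 (0.190 TPM) lies 0.955 Mb before Cdh4 (179442431 to 179899373; 82.4 TPM), again with no protein-coding gene between them. On chromosome 14, Pcdh8, Pcdh17, Pcdh20 and Pcdh9 (93013410 to 93890679) follow each other with at most 2 protein-coding genes between neighbours, and all 4 were called above 1 TPM, at 20.2, 8.74, 9.03 and 67.8 TPM. The 8 members on chromosome 8 included 3 called above 1 TPM, Cdh8, Cdh11 and Cdh13, while Cdh3 and Cdh16 had too few counts to test. These counts by chromosome stand beside 75.7% of protein-coding genes tested called above 1 TPM, and nothing about position is read from them. Cdh8, Cdh11 and Cdh5 are neighbours there with no protein-coding gene between them, at 17.9, 3.79 and 0.119 TPM.

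**Figure D4:**
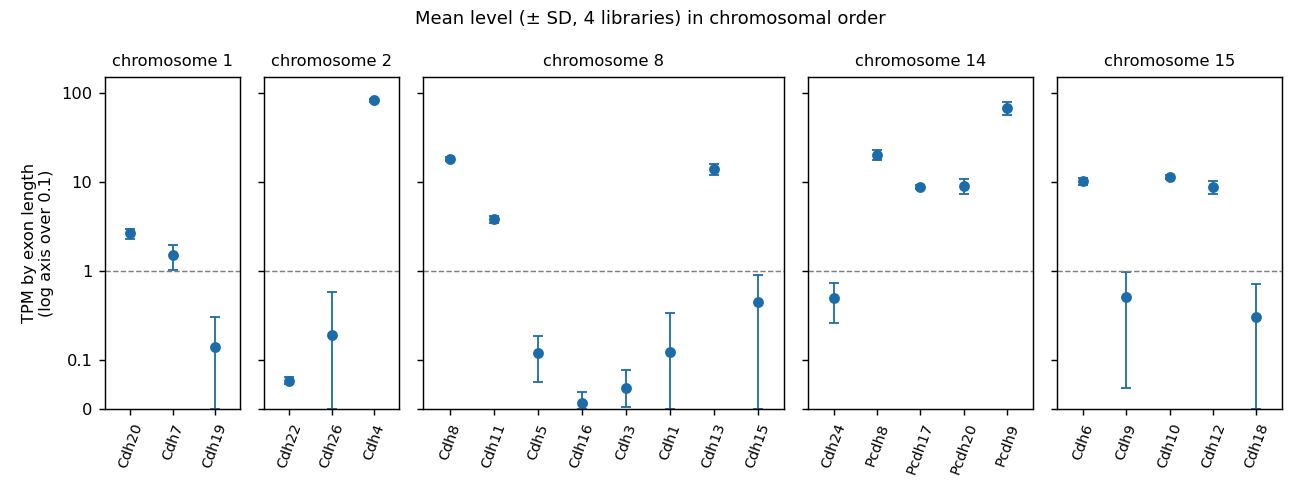
Mean TPM by exon length (± SD over 4 libraries, lower bars ending at 0 at the latest) of the members on chromosomes 1, 2, 8, 14 and 15, in chromosomal order and not to distance, on an axis that is logarithmic over 0.1 TPM, with a dashed line at 1 TPM. Cdh9 and Cdh18 on chromosome 15 and Cdh26 on chromosome 2 lie far below neighbouring members, and 4 consecutive protocadherins on chromosome 14 lie above 1 TPM. Of all protein-coding genes tested, 75.7% were called above 1 TPM.

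For 4 members the bases before the start site are shown, because they pair like calls with unlike CG content. RefSeq's GRCm38.p6 promoter table held 22 of the 35 members. It had no entry for Cdh1, Cdh2, Cdh3, Cdh4, Cdh5, Cdh11, Cdh13, Cdh16, Cdh17, Cdh19, Pcdh1, Pcdh11x and Pcdh12. The motif searched was CG, which reads the same on both strands, in the 250 bases before the start site. At least 1 CG is in 92.1% of the 32851 promoters of the table, and the median is 6. Pcdh17 and Pcdh20 were at like levels (8.74 and 9.03 TPM), with 21 and 3 CG. Cdh24 and Cdh23 were both called below 1 TPM, with 22 and 5 CG. Each sequence is given 5′ to 3′ on the strand of its gene, with every CG in capitals.
Pcdh17 (chr14:84443313-84443562, plus strand): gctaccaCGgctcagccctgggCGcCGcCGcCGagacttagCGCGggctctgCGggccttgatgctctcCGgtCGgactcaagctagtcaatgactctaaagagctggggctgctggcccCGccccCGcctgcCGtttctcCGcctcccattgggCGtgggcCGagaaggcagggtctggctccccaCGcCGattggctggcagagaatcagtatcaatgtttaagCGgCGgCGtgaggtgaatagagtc
Pcdh20 (chr14:88471397-88471646, minus strand): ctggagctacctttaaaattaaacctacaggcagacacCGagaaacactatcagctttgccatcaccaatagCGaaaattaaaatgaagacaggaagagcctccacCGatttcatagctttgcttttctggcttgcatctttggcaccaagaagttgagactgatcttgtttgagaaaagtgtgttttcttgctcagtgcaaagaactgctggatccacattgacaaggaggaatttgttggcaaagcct
Cdh24 (chr14:54641365-54641614, minus strand): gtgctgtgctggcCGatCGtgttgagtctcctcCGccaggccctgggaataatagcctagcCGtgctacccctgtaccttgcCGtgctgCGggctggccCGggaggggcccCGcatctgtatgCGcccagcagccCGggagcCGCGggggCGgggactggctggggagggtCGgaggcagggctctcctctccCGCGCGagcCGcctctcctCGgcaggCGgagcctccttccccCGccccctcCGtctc
Cdh23 (chr10:60696491-60696740, minus strand): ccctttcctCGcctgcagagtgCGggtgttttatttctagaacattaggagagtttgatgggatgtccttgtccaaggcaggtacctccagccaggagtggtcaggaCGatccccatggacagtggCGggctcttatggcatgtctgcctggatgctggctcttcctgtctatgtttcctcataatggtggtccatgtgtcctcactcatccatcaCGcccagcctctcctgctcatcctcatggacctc
Many CG stood before both a member called above 1 TPM and one called below it, and few CG likewise. The 4 genes were picked for this contrast, and whether CG content goes with level was not tested. Over the 14 matched genes called above 1 TPM the count ran from 2 (Cdh10) to 23 (Pcdh18), with a median of 12. Over the 8 others it ran from 0 (Cdh26) to 30 (Cdh22), with a median of 6. For Cdh12, Cdh15, Cdh18, Pcdh15 and 5 more genes, Cdh10 and Cdh22 among them, the RefSeq start lies over 100 bases inside the GENCODE gene. For these genes the window is thus not the only stretch before an annotated start. The start lies 662187 bases inside Cdh12, 722525 inside Pcdh15 and 487441 inside Cdh18.

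Most members have long introns, and their place in the deposited TPM differs from that by exon length. The median gene span of the members, introns included, was 123347 bases, against 17726 for protein-coding genes, and the median share of the span that is exon was 5.80% against 20.3%. For 9036 of 9528 genes (94.8%) the deposited TPM followed the count divided by the whole gene span, within 0.01 on the log2 scale, and for 79 it followed the merged exons. Of the 20 members called above 1 TPM by exon length, 12 were also called above it on the deposited scale, 6 were called below it and 2, Pcdh20 and Pcdh11x, are not in the deposited TPM table. The 6 were Cdh13, Cdh12, Pcdh7, Cdh11, Cdh20 and Cdh7. On the deposited scale 12 of the 30 members tested were called above 1 TPM and 17 below. Of 13741 protein-coding genes tested on that scale, 9570 were called above and 2877 below. How many protein-coding genes changed call between the 2 scales was not counted. Cdh12, with a span of 1140269 bases, went from 8.70 ± 1.37 TPM by exon length to 0.403 ± 0.0629 deposited TPM (SD, n = 4). Pcdh9 went from rank 2 to rank 9 of the 33 members in the table, and Cdh4 from 1 to 5.

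The compact genes moved the other way. Pcdh8 spans 4538 bases, all of them annotated as exon in 1 transcript or another, and Pcdh18 spans 14030. They were at 70.9 ± 8.74 and 39.5 ± 5.23 deposited TPM and took ranks 1 and 2, from ranks 5 and 4 by exon length. Pcdh8 shares 9.61% of its exonic bases with the antisense gene Gm9748, which had 105 counts against 3462. Cdh2 kept rank 3 on both scales. Of the 16 fixed pairs with both genes in the deposited table, 6 turned their sign there.

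**Figure D5:**
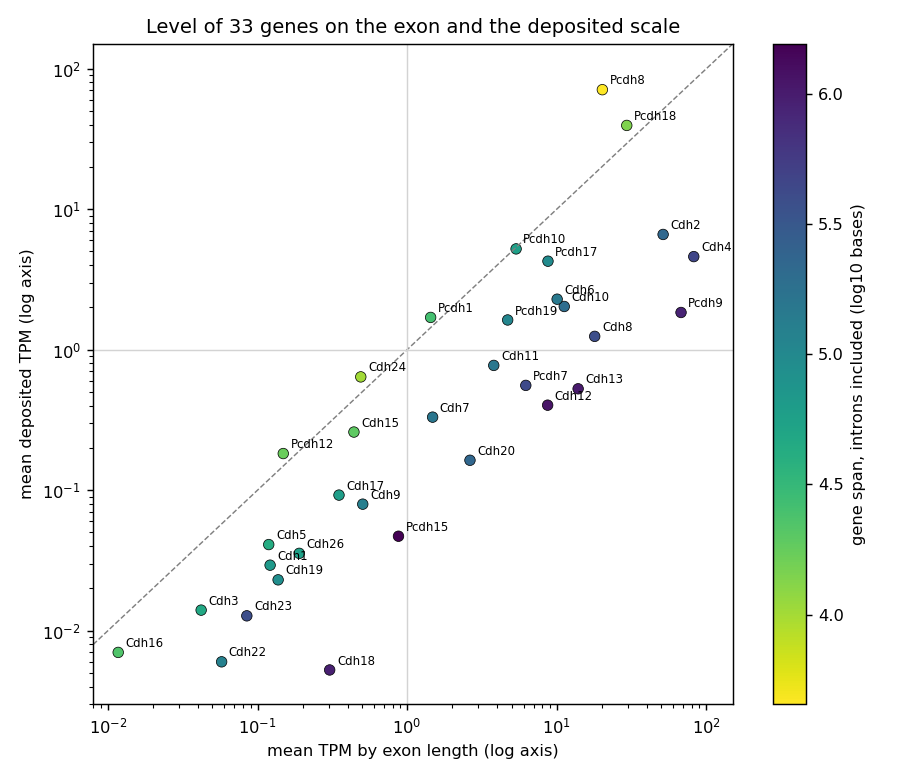
Mean deposited TPM against mean TPM by exon length (both axes logarithmic) of the 33 genes in the deposited TPM table, 1 point per gene, coloured by gene span, with a dashed line at equal values and grey lines at 1 TPM. Genes with long spans, such as Pcdh9, Cdh12 and Cdh13, lie far below the dashed line, and Pcdh8 and Pcdh18 lie above it.

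The genes that cadherins work with were measured in 5 lists of 54 genes. Of 51 with enough counts, 42 were called above and 7 below 1 TPM. These counts and those of the single lists stand beside 75.7% of protein-coding genes tested called above and 11.5% below, and nothing particular to the lists is read from them. Of 11 catenins and junction partners, 10 were above. Ctnnb1, β-catenin, was at 140.3 ± 9.77 TPM (SD, n = 4), the neuronal α-catenin Ctnna2 at 109 ± 7.41 TPM, the epithelial form Ctnna1 at 78.0 ± 5.26 TPM and the actin-binding junction protein Afdn at 23.1 ± 0.925 TPM. The heart and testis form Ctnna3 was called below 1 TPM (0.0811 TPM, edgeR adjusted p = 0.0156). Cdh2 was below Ctnnb1 in all 4 libraries, at a log2 ratio of -1.44 ± 0.18 (SD, n = 4). Of the catenin pairs, Ctnna2 exceeded Ctnna1 by 0.48 ± 0.06, Ctnnd2, the neural δ-catenin, exceeded p120-catenin (Ctnnd1) by 0.73 ± 0.16, and Ctnnb1 exceeded plakoglobin (Jup) by 4.20 ± 0.31, each in all 4 libraries. In the deposited TPM Ctnna2 lay below Ctnna1 (-2.20).

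All 9 genes of the WAVE complex, the partner of δ2 protocadherins, were above 1 TPM. The small subunit gene Brk1 was at 692 ± 42.6 TPM, the Abi adaptor genes Abi1 and Abi2 at 91.3 ± 6.95 TPM and 80.8 ± 5.55 TPM, and Wasf1, the neuronal WAVE, at 79.5 ± 6.85 TPM (SD, n = 4). Of 10 genes for the shedding, maturation and uptake of cadherins, 8 were above 1 TPM. The cadherin sheddase gene Adam10 was at 53.4 ± 4.31 TPM (SD, n = 4), Adam17 at 18.6 ± 1.27 TPM and the endocytic adaptor Numb at 14.8 TPM. The proprotein convertase gene Pcsk5 was called below 1 TPM (0.398 TPM, edgeR adjusted p = 0.00139).

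Of 15 atypical and distant cadherins, 10 were above and 3 below 1 TPM. The calsyntenin genes Clstn1, Clstn3 and Clstn2 were at 89.5 ± 3.57 TPM, 82.5 ± 7.02 TPM and 27.3 ± 2.89 TPM, and Celsr2, a cadherin of planar cell polarity, at 37.7 ± 3.54 TPM (SD, n = 4). Dchs2, the desmosomal Dsc2 and Cdhr1 were called below 1 TPM, at 0.161, 0.269 and 0.182 TPM, and Fat2 had no count. The call of Cdhr1 was lost without replicate 1 (edgeR adjusted p = 0.0779) and without replicate 2 (0.0611). Of 9 genes that work with the tip link, 5 were above 1 TPM. These included Cib2 at 17.2 ± 1.87 TPM, the motor gene Myo7a at 5.50 ± 0.416 TPM, Lhfpl5 at 2.58 ± 1.18 TPM and the scaffold gene Ush1c at 1.94 ± 1.05 TPM. The call of Ush1c was lost without replicate 1 (edgeR adjusted p = 0.0931), without replicate 2 (0.0545) and by limma (0.0840), and on the deposited scale it was called below 1 TPM. Tmc2 and Tmie, of the transduction channel, were called below 1 TPM (0.105 and 0.153 TPM), and Tmc1 and Ush1g had too few counts to test. The call of Tmie was lost without replicate 2 (edgeR adjusted p = 0.0541) and without replicate 3 (0.0641).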

How the data were processed

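RNA was measured by sequencing in 4 libraries of a single group. Per the labels' protocols, poly-dT priming with template switching gave cDNA that was amplified and sheared before library construction. Per the submitters' processing notes, the tools were bcl2fastq 2.19.1 and STAR 2.5.2b and the build GRCm38. Not given in the sources used here is which program counted the reads, with what annotation and strand setting. The authors deposited whole-number counts per Ensembl gene, not normalised, and a TPM table of 15648 genes whose length basis was tested from the values. Of 45706 genes, 45143 matched GENCODE M21. Those without a match held 0.120% to 0.125% of the counts.

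TPM was recomputed from the deposited counts with merged exon lengths over all matched genes. The offset of the edgeR 4.0.16 quasi-likelihood test (R 4.3.3) was the log count that a level of 1 TPM would give, and its F test was computed from the fitted deviances because the design has 1 column. Standard errors came from the fitted variance. The procedure was also run on simulated counts, and the outcome is not given here. Pairs used log2((TPM + 0.5)/(TPM + 0.5)) and an exact sign-flip permutation test. Alternatives were DESeq2 1.42.0, limma 3.58.1 on log2(TPM + 0.1), TMM factors, no count filter, other lengths and denominators, pseudocounts and leaving out each library. Every member is named. Values in every library are given for the 16 members of highest mean called above 1 TPM, Cdh11 (chosen after its values were seen), Cdh1, Cdh2, Cdh5 and Pcdh15 (likewise), and in each partner list the 4 highest genes called above 1 TPM and those called below it are named, except items that are not reported here. The members and lists were chosen with earlier results of these data known.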

Additional observations from a re-analysis of the deposited data

Results flagged for a closer look

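In each of the 35 members the highest or lowest of the 4 libraries was compared with the gap to its nearest neighbour, and in 5 the gap took more of the whole range than Dixon's 95% critical value. Chance alone gives this in about 1 of 20 groups of normally distributed values. That rate does not hold for genes with few counts, and a gene with reads in a single library always passes. Cdh2 was at 45.5 TPM in replicate 4 against 52.8 TPM in the nearest other library. Cdh18 was at 0.897 TPM in replicate 2 against 0.123 TPM in the next. Cdh26 was at 0.760 TPM in replicate 3 and at 0 in the others. Cdh1 was at 0.432 TPM in replicate 3 against 0.0531 TPM. Cdh16 was at 0.0469 TPM in replicate 2, from 2 counts, and at 0 in the others. Of the 5, only Cdh2 was called above 1 TPM. Why its level was lower in replicate 4 was not tested.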

How the results depend on the processing

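DESeq2, TMM factors, and a protein-coding denominator kept every count of calls within 1.5 times the reported one. Members below 1 TPM numbered 11 by limma on log2(TPM + 0.1), 11 with no count filter and 17 on the deposited scale, and members above numbered 12 there and 18 by limma. Leaving out each library gave 18 to 20 members above and 3 to 6 below. The count below was 3, a change of over 1.5 times, without replicate 1, 3 or 4. Fewer libraries also weaken the test, and all genes called below fell whichever library was left out. These changes thus cannot be assigned to single replicates. Partner genes below were 13 on the deposited scale and 4 to 7 without each library (4 without replicate 1 or 2), with 41 to 42 above. All genes below were 6564 with no count filter and 1525 to 1707 without each library (furthest from 2532 without replicates 1, 2 and 3), with 13535 to 13665 above. Protein-coding genes below were 3453 with no count filter, 2877 on the deposited scale and 1167 to 1282 without each library, with 11544 to 11595 above. The median of the members was 1.44 with pseudocount 0.1, 2.11 as a mean, 0.49 in the deposited TPM, 2.28 with at least 10 counts and 1.82 to 1.92 without each library. That of protein-coding genes was 1.38, 2.48, 2.22, 3.31 and 1.80 to 1.82 in that order, and 1.78 with the longest transcript.

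On the deposited scale, log2 levels against 1 TPM turned to -0.91 (Cdh13), -2.56 (Cdh12), -0.83 (Pcdh7), -0.36 (Cdh11), -2.60 (Cdh20), -1.58 (Cdh7), -0.10 (Clstn2) and -0.70 (Ush1c), and log2 ratios to 0.48 (Cdh2/Cdh4), 0.31 (Cdh11/Cdh13), 0.67 (Cdh6/Cdh8), -1.03 (Pcdh9/Pcdh17), 1.03 (Pcdh1/Pcdh7) and -2.20 (Ctnna2/Ctnna1). These follow from dividing by the gene span. Pcdh15 turned to 0.79 with the longest transcript. The 14 members with the fewest counts had between 2 and 71 in all, and leaving out 1 library can take a gene under the 10-count filter, as for Cdh1 and Cdh26 without replicate 3 and Cdh19 without replicate 4. No pairing of samples between conditions was possible because all libraries belong to 1 group.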
